A study of Homo sapiens with 8 samples.

Results

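The luminal breast markers described here are 7 genes found by symbol in the count table, out of 25369 genes listed: ESR1, FOXA1, GATA3, SPDEF, TFF1, AGR2 and MLPH. They were read in 8 RNA sequencing libraries of MDA-MB-231, an established human cell line from a triple-negative breast cancer, with spindle-shaped mesenchymal cells. The groups, with 2 libraries each, were a line with SUN2 knocked out (SUN2KO), a line with a SUN2 that lacks residues 569 to 585 (Kashlid), a line with a SUN2 that lacks residues 1 to 139 (LBD), and unmodified cells (WT). Per the design text, the first truncation was meant to cut SUN2 off from Nesprin-2G and the second to cut it off from the lamin network. The labels do not say in which cells the truncated forms were made, how they were introduced, or whether a line is 1 clone. They also do not say that the 2 libraries of a group are separate cultures, and p-values then reflect no more than library-to-library spread, which may be technical.

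ESR1 encodes estrogen receptor alpha, a nuclear receptor that turns on genes when bound by estrogen. In luminal breast cancer it works with FOXA1, a forkhead pioneer factor that opens chromatin, and with GATA3, a zinc finger factor of luminal cell fate. SPDEF is an ETS factor of secretory epithelium. TFF1, a secreted trefoil peptide, and AGR2, a protein disulfide isomerase of the endoplasmic reticulum, are classical estrogen-responsive products, and MLPH (melanophilin) links the GTPase RAB27A on organelles to the motor myosin Va.

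Library totals lay between 16570099 and 18814795 counts. SUN2 itself had 474 to 643 counts in the 6 libraries of the modified lines, against 1408 and 1441 in WT. The filter on low counts kept 14016 genes and 6 of the 7 markers, all but SPDEF. Of the markers of such mesenchymal cells, vimentin (VIM) was at 299 ± 3.59, 300.1 ± 27.3, 337 ± 5.85 and 404 ± 5.62 CPM in SUN2KO, Kashlid, LBD and WT (CPM, counts scaled to a common library size with TMM factors, SD, n = 2 each), and CD44 was at 333 ± 5.43 CPM in WT. Unlike VIM, CD44 was not lowest in the modified lines, with 11977, 11628, 14066 and 11456 summed and unscaled counts in SUN2KO, Kashlid, LBD and WT. The progesterone receptor gene PGR, a target of the estrogen receptor, had 0 counts in SUN2KO, Kashlid and LBD and 2 counts in WT. The simple keratin KRT8, a luminal marker, was at 1645 ± 17.5, 1119 ± 88.0, 1333 ± 19.2 and 1044 ± 28.1 CPM in SUN2KO, Kashlid, LBD and WT. KRT19, another keratin among the luminal markers, had only 6, 1, 3 and 5 counts in these groups.

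The reference sequence before the starts of FOXA1, AGR2 and MLPH is given because these genes changed in at least 2 of the lines and have windows in RefSeq's promoter table (GRCh38.p14), which matched 6 of the 7 symbols. Each line holds the 250 bases before a start, 5′ to 3′ on the gene's strand, and MLPH has 2 starts. Capitals mark matches, on either strand, to the forkhead motifs TGTTTAC and TGTTTGC, the GATA factor motif AGATAA, the E-box CACGTG, the TATA box motif TATAAA, or the estrogen element, which is GGTCA with TGACC set 3 bases after it. No window printed here holds over 1 match, so none overlap.
FOXA1, chr14:37595250-37595499, minus strand: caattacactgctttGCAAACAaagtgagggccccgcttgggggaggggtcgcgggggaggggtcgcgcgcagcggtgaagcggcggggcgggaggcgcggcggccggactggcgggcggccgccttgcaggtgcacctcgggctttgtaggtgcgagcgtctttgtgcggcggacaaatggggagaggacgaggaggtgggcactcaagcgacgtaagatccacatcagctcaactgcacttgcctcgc
AGR2, chr7:16805000-16805249, minus strand: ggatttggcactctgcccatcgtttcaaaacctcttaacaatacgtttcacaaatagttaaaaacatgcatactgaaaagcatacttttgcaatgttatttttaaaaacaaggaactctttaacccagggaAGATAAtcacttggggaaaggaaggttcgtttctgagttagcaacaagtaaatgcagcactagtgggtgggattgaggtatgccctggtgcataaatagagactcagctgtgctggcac
MLPH, first start, chr2:237486160-237486409, plus strand: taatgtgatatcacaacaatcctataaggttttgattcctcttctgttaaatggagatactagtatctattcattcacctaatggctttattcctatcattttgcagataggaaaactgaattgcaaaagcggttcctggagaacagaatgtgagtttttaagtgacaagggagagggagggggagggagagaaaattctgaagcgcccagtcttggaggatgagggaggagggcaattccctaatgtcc
MLPH, second start, chr2:237487001-237487250, plus strand: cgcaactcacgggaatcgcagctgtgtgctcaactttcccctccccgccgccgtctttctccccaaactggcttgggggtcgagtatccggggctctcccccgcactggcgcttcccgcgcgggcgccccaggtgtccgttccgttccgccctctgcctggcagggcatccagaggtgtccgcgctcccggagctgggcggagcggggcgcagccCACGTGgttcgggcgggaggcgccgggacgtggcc
FOXA1 holds 1 forkhead match, which begins 235 bases before its start, and TGTTTGC occurs in 3.89% of 35116 promoter windows of 300 bases. AGR2 holds 1 GATA factor match at 119 bases before its start (10.3% of windows hold AGATAA). The second MLPH window holds 1 E-box at 35 bases before that start (7.26% of windows). The estrogen element was found in 0.057% of windows and in none of the windows of the 6 markers that have one. TFF1 is the marker without a window, so the sequence before its start was not searched. These matches are letters in a reference window, and no binding was measured.

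Of the transcription factors, FOXA1 was the only one that passed the test in any comparison. FOXA1 (chromosome 14, 38058757 to 38064325 on hg19) had 398 and 336 counts in SUN2KO, 341 and 273 in Kashlid, 336 and 326 in LBD, and 187 and 234 in WT. Every library of the modified lines was above both WT libraries, as was the case in either direction for 69.4%, 71.1% and 70.0% of all tested genes in SUN2KO, Kashlid and LBD against WT. In CPM these were 19.8 ± 2.46 in SUN2KO, 17.9 ± 2.62 in Kashlid, 19.5 ± 0.0397 in LBD and 12.2 ± 1.54 in WT (SD, n = 2 each).

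FOXA1 rose 1.62-fold in SUN2KO over WT, a log2 fold change of 0.70 ± 0.13 (SE, adjusted p = 0.000281, edgeR's quasi-likelihood test with Benjamini-Hochberg adjustment, two-sided). It rose 1.46-fold in Kashlid (0.55 ± 0.13, adjusted p = 0.0021) and 1.59-fold in LBD (0.67 ± 0.13, adjusted p = 0.000366). These 3 comparisons share the WT libraries. In bulk libraries, more cells that express a gene and more RNA per cell cannot be told apart. Between the modified lines FOXA1 did not pass, with -0.15 ± 0.13 for Kashlid over SUN2KO (adjusted p = 0.465), -0.02 ± 0.12 for LBD over SUN2KO (adjusted p = 0.934) and 0.12 ± 0.13 for LBD over Kashlid (adjusted p = 0.682).

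ESR1 and GATA3 were near the limit of detection in all groups. ESR1 (chromosome 6, 152126808 to 152424408) had 12 and 17 counts in SUN2KO, 7 and 6 in Kashlid, 12 and 12 in LBD, and 13 and 12 in WT. Both Kashlid libraries were the lowest of the 8. Its summed counts of 13 in Kashlid against 25 in WT gave a ratio of 0.521 with an exact 95% counting interval of 0.245 to 1.06, which covers counting error only. Against the 29 counts of SUN2KO the ratio was 0.484 (0.231 to 0.961), and the fit gave -1.03 ± 0.54 (adjusted p = 0.205). In the fit ESR1 was at -0.93 ± 0.55 in Kashlid over WT (adjusted p = 0.185), 0.10 ± 0.48 in SUN2KO over WT (adjusted p = 0.889) and -0.04 ± 0.49 in LBD over WT (adjusted p = 0.958), and none of these passed.

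GATA3 (chromosome 10, 8096667 to 8117164) had 9 and 13 counts in SUN2KO, 4 and 9 in Kashlid, 15 and 8 in LBD, and 6 and 9 in WT, and all groups overlapped with WT. The ratios of summed counts to WT were 1.36 (95% counting interval 0.675 to 2.82) in SUN2KO, 0.869 (0.38 to 1.96) in Kashlid and 1.55 (0.776 to 3.2) in LBD. The fitted values, 0.44 ± 0.60, -0.20 ± 0.67 and 0.63 ± 0.60, did not pass (adjusted p = 0.612, 0.836 and 0.437), nor did those between the modified lines. SPDEF (chromosome 6, 34505579 to 34524110) had 3 and 0 counts in SUN2KO, 2 and 0 in Kashlid, 1 and 2 in LBD, and 3 and 0 in WT. No group exceeded 3 counts in all, so no fold is given for SPDEF.

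**Figure D1:**
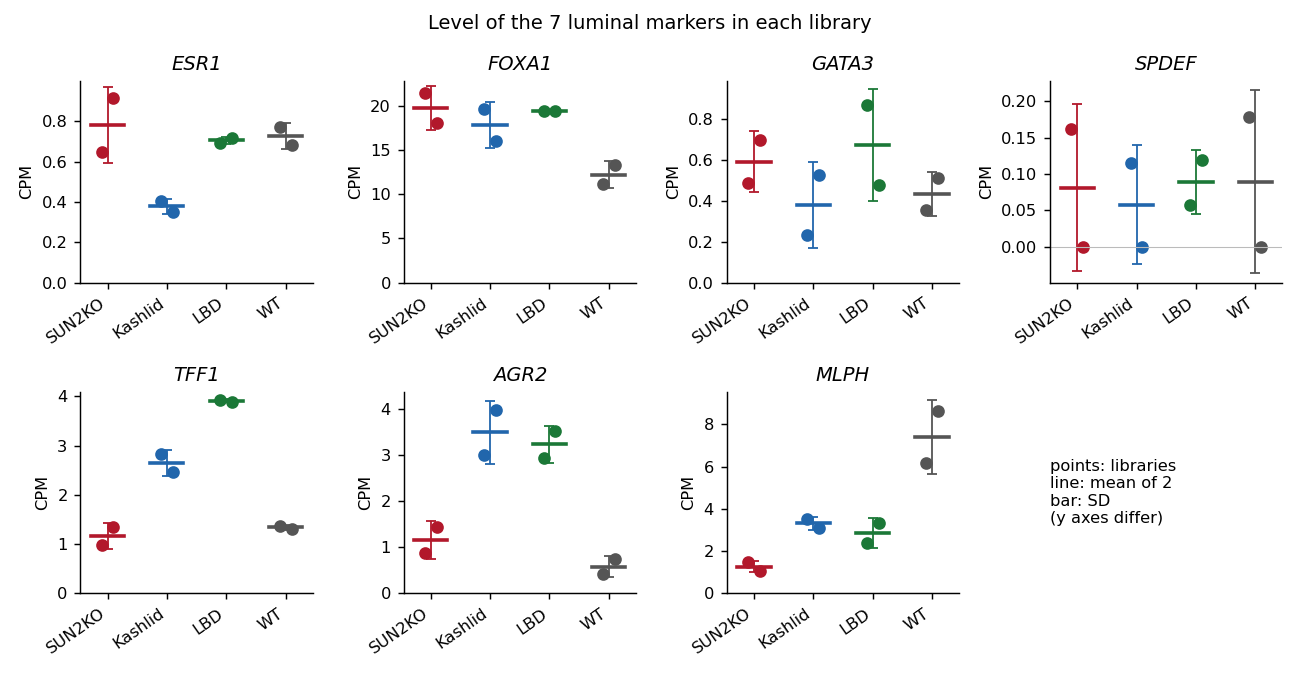
TMM-scaled CPM of the 7 markers in the 8 libraries; points are libraries, lines the mean of 2 and bars the SD, and the y axes differ between panels. FOXA1 sits at 16.01 to 21.5 CPM in the modified lines, above 11.1 and 13.3 in WT, TFF1 and AGR2 are highest in Kashlid and LBD, and MLPH is highest in WT and lowest in SUN2KO.

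The secreted and secretory pathway markers TFF1 and AGR2 were higher in both truncation lines. TFF1 (chromosome 21, 43782391 to 43786644) had 18 and 25 counts in SUN2KO, 49 and 42 in Kashlid, 68 and 65 in LBD, and 23 and 23 in WT. LBD was the highest group, Kashlid came next, and SUN2KO and WT overlapped. Mean levels were 1.16 ± 0.261, 2.65 ± 0.261, 3.91 ± 0.0332 and 1.34 ± 0.0429 CPM in SUN2KO, Kashlid, LBD and WT (SD, n = 2 each).

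TFF1 rose 2.92-fold in LBD over WT (log2 fold change 1.54 ± 0.29, adjusted p = 0.000239) and 1.98-fold in Kashlid over WT (0.98 ± 0.31, adjusted p = 0.0124), and was at -0.20 ± 0.34 in SUN2KO over WT (adjusted p = 0.687). The difference between lines was tested directly: TFF1 was higher in LBD than in SUN2KO by 1.75 ± 0.29 (adjusted p = 0.00027) and in Kashlid than in SUN2KO by 1.19 ± 0.31 (adjusted p = 0.00949). LBD over Kashlid, at 0.56 ± 0.26, did not pass (adjusted p = 0.287). The Kashlid value is the less firm one. It missed the threshold without Kashlid replicate 1 (0.88, adjusted p = 0.0714), without WT replicate 1 (1.02, adjusted p = 0.0512) and without WT replicate 2 (0.95, adjusted p = 0.0669), and the authors' deposited table gives TFF1 in Kashlid a log2 fold change of 0.99 with an adjusted p of 0.144. The step over SUN2KO missed it without SUN2KO replicate 1 (0.98, adjusted p = 0.115) and without Kashlid replicate 1 (1.09, adjusted p = 0.0585).

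AGR2 (chromosome 7, 16832264 to 16844738) had 16 and 27 counts in SUN2KO, 52 and 68 in Kashlid, 51 and 59 in LBD, and 7 and 13 in WT. Kashlid and LBD overlapped with each other and lay above both SUN2KO libraries, which lay above both WT libraries. Levels were 1.16 ± 0.414, 3.5 ± 0.694, 3.24 ± 0.408 and 0.577 ± 0.228 CPM in SUN2KO, Kashlid, LBD and WT. AGR2 had the largest increase among the tested markers, 5.96-fold in Kashlid over WT (2.58 ± 0.38, adjusted p = 1.36e-05) and 5.52-fold in LBD over WT (2.46 ± 0.39, adjusted p = 3.12e-05). In SUN2KO over WT it was at 0.99 ± 0.45, which did not pass (adjusted p = 0.0898).

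AGR2 was higher in Kashlid than in SUN2KO by 1.59 ± 0.33 (adjusted p = 0.00173) and in LBD than in SUN2KO by 1.48 ± 0.33 (adjusted p = 0.0045), while LBD over Kashlid was at -0.11 ± 0.29 (adjusted p = 0.895). Without SUN2KO replicate 1 the Kashlid and LBD steps over SUN2KO were 1.26 (adjusted p = 0.0515) and 1.16 (adjusted p = 0.0973), and without LBD replicate 2 the LBD step was 1.34 (adjusted p = 0.061). Of the paralogs next to these genes in the genome, TFF3 and AGR3 had 0 counts in all 8 libraries, and TFF2 had 3, 6, 5 and 7 counts in SUN2KO, Kashlid, LBD and WT.

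MLPH went the other way. MLPH (chromosome 2, 238395862 to 238463961, a span that also holds the microRNA gene MIR6811) had 27 and 20 counts in SUN2KO, 61 and 53 in Kashlid, 41 and 56 in LBD, and 104 and 152 in WT. WT was above every other library, SUN2KO was below every other library, and Kashlid and LBD overlapped. Levels were 1.27 ± 0.273, 3.32 ± 0.296, 2.86 ± 0.691 and 7.41 ± 1.73 CPM in SUN2KO, Kashlid, LBD and WT (SD, n = 2 each).

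MLPH fell 5.83-fold in SUN2KO against WT (-2.54 ± 0.28, adjusted p = 4.07e-07), 2.23-fold in Kashlid (-1.16 ± 0.24, adjusted p = 0.000525) and 2.59-fold in LBD (-1.38 ± 0.25, adjusted p = 0.000139). Against SUN2KO, MLPH was higher by 1.38 ± 0.30 in Kashlid (adjusted p = 0.0026) and by 1.17 ± 0.31 in LBD (adjusted p = 0.0144). LBD over Kashlid was at -0.22 ± 0.27 (adjusted p = 0.746). The LBD step over SUN2KO missed the threshold without SUN2KO replicate 2 (0.97, adjusted p = 0.141) and without LBD replicate 2 (0.90, adjusted p = 0.193). The authors' deposited tables give MLPH -2.55, -1.16 and -1.37 in SUN2KO, Kashlid and LBD over WT, with adjusted p of 8.79e-10, 0.0029 and 0.000519.

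**Figure D2:**
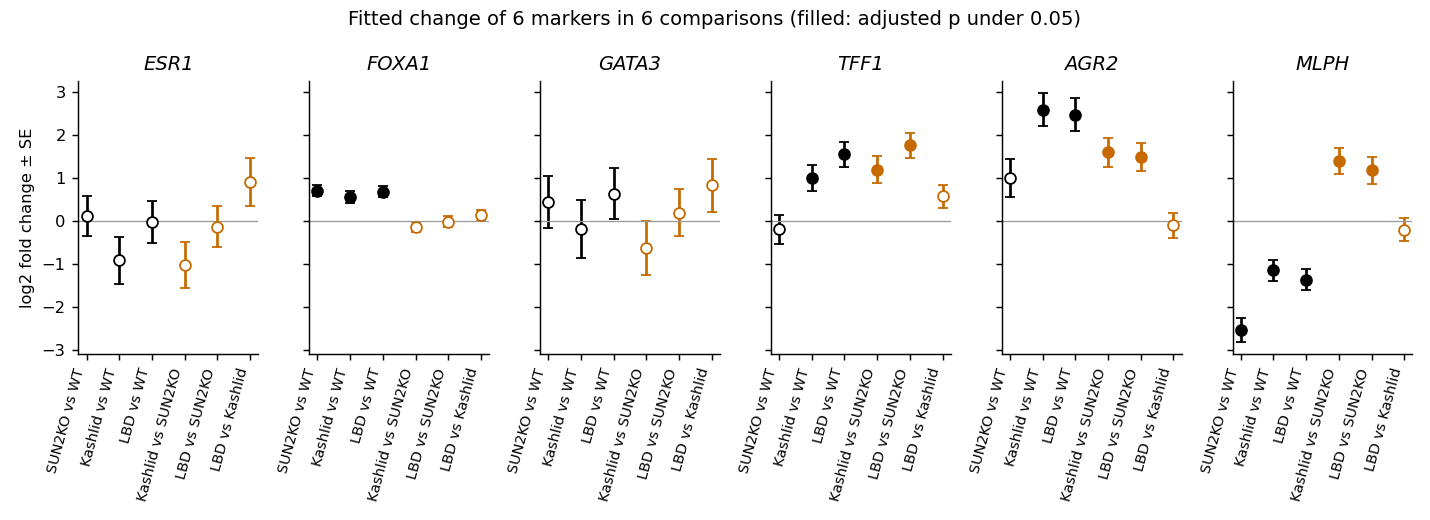
Log2 fold change ± SE of the 6 markers that passed the filter, in 6 comparisons; filled points passed at an adjusted p under 0.05, dark points are comparisons with WT and orange points are comparisons between the modified lines. FOXA1 rises against WT in all 3 lines and does not pass between them, whereas TFF1, AGR2 and MLPH are higher in Kashlid and LBD than in SUN2KO.

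Counted over the tested markers, 1 rose, 1 fell and 4 did not pass in SUN2KO over WT, where 36.7% of all tested genes passed (17.5% higher, 19.1% lower). In Kashlid over WT 3 rose, 1 fell and 2 did not pass (44.5% of all genes, 21.7% higher and 22.7% lower), and the counts were the same in LBD over WT (40.0%, 19.0% higher and 21.0% lower). Against SUN2KO, 3 markers were higher and 0 lower in Kashlid and likewise in LBD, where 8.92% and 6.69% of all genes were higher, 9.13% and 6.79% lower, and 18.0% and 13.5% passed in either direction. The libraries of TFF1, AGR2 and MLPH did not overlap in these pairs, nor did those of 56.8% of all genes in Kashlid and SUN2KO and 54.6% in LBD and SUN2KO. Between LBD and Kashlid 0 of 6 passed in edgeR, with 1 (TFF1) at an unadjusted p under 0.05, against 2.91% of all genes in edgeR (1.63% higher, 1.28% lower). DESeq2 gave none of the 6 an adjusted p in this pair, so its 0 calls could not have been otherwise, and it had 0 at an unadjusted p under 0.05. TFF1 and ESR1 did not overlap between LBD and Kashlid, nor did 43.8% of all genes.

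Genes near TFF1 and AGR2 on the chromosome were more often lower than higher. Over all tested genes, 17.5%, 21.7% and 19.0% were higher and 19.1%, 22.7% and 21.0% lower in SUN2KO, Kashlid and LBD over WT. Of 42 tested genes within 2.5 Mb of TFF1, 1 rose and 30 fell in SUN2KO over WT, 2 rose and 26 fell in Kashlid, and 1 rose and 28 fell in LBD, with median log2 fold changes of -0.44, -0.47 and -0.37. TFF1 itself did not pass in SUN2KO. The part of its neighbourhood in its change was not tested. MX2, an interferon-induced GTPase gene near TFF1, rose by 3.05 in Kashlid and 2.98 in LBD (adjusted p = 5.04e-05 and 8.65e-05), more than TFF1, and was at -0.50 in SUN2KO (adjusted p = 0.669). MX1, in the same window, did not pass. It was at -0.27, -1.02 and -0.19 in SUN2KO, Kashlid and LBD (adjusted p = 0.709, 0.131 and 0.796). The 7 tested genes around AGR2 had medians of -0.26, -0.29 and -0.32 in SUN2KO, Kashlid and LBD, with 0 higher and 3, 5 and 2 lower. With so few genes, the 2 lower of 7 in LBD are close to the share over all genes. Within 1 Mb of AGR2 the medians of 4 genes were -0.10, -0.18 and -0.0979. Within 5 Mb those of 16 genes were -0.20, -0.15 and -0.16, with 1, 1 and 2 higher and 6, 8 and 4 lower.

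Of the 17 genes around MLPH, 4 rose and 1 fell in SUN2KO over WT, 3 rose and 5 fell in Kashlid, and 2 rose and 2 fell in LBD, with medians of 0.17, -0.02 and -0.13, the last of which was 0.0420 within 5 Mb. MLPH was not alone in falling: ACKR3, an atypical chemokine receptor gene of this region, fell with log2 fold changes of -2.39, -2.94 and -2.54 in SUN2KO, Kashlid and LBD (adjusted p = 2.41e-06, 2.79e-07 and 1.37e-06). IQCA1, also near MLPH, fell by 2.39 in Kashlid (adjusted p = 0.0197) and was at -1.60 in LBD (adjusted p = 0.0809) and 0.08 in SUN2KO (adjusted p = 0.932). Other neighbours of MLPH rose in all 3 lines. RAB17 rose by 1.17, 0.94 and 0.77 in SUN2KO, Kashlid and LBD (adjusted p = 0.00169, 0.00858 and 0.0339). ASB1 rose by 0.59, 0.44 and 0.35 (adjusted p = 5.26e-06, 0.000115 and 0.00125). The 20 genes around FOXA1 had medians of 0.10, 0.01 and 0.002. Around GATA3 the 13 tested genes had medians of -0.36, -0.46 and -0.37, and within 1 Mb the Kashlid median of 4 genes was -0.25.

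**Figure D3:**
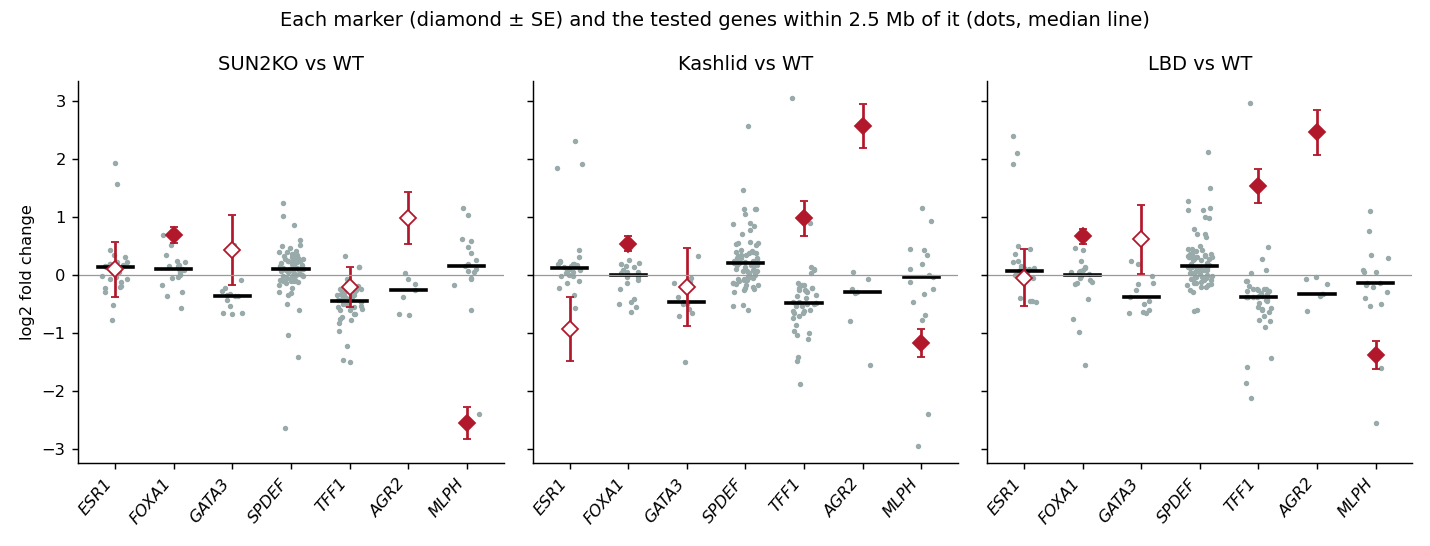
Log2 fold change of each marker (diamond ± SE, filled where the adjusted p was under 0.05) and of every tested gene within 2.5 Mb of it (dots, with the median as a line), in SUN2KO, Kashlid and LBD over WT; SPDEF has no fitted value. The medians near AGR2 and TFF1 are below 0 and those near MLPH are between -0.13 and 0.17, while single neighbours lie beyond the marker, such as MX2 near TFF1 (3.05 in Kashlid and 2.98 in LBD) and ACKR3 near MLPH (-2.94 in Kashlid and -2.54 in LBD).

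Other luminal epithelial genes rose more often than they fell. Of 34 listed, 22 were tested, and 12 rose, 4 fell and 6 did not pass in SUN2KO over WT, with a median log2 fold change of 0.42 where that of all genes was 0.003 (0.005 in Kashlid and 0.003 in LBD). In Kashlid 9 rose, 5 fell and 8 did not pass (median 0.15), and in LBD 10 rose, 3 fell and 9 did not pass (median 0.17). Thus 72.7%, 63.6% and 59.1% of the 22 passed in SUN2KO, Kashlid and LBD, against 36.7%, 44.5% and 40.0% of all tested genes. Keratin genes made up much of the summed level of the list. KRT8, KRT7 and KRT18 were at 1645, 851 and 702 CPM in SUN2KO and 1044, 835 and 448 in WT. The summed level of the list was 4240 to 4312 CPM in SUN2KO, 3068 to 3242 in Kashlid, 3574 to 3589 in LBD and 3197 to 3412 in WT, with 4 of 34 genes at 0 in all libraries.

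Among those that fell, the simple keratin gene KRT7 was at 468 ± 0.578 CPM in Kashlid and 633 ± 35.4 in LBD, against 835 ± 109 in WT (-0.83 ± 0.06 and -0.40 ± 0.06, adjusted p = 1.03e-09 and 2.54e-05). TBC1D9 fell by 0.23 ± 0.09, 0.49 ± 0.09 and 0.59 ± 0.09 in SUN2KO, Kashlid and LBD. SLC39A6, a zinc transporter gene, fell by 0.26 ± 0.06 in SUN2KO and 0.24 ± 0.06 in Kashlid, and the surface antigen gene CD24 by 0.20 ± 0.05 in Kashlid and 0.24 ± 0.05 in LBD. XBP1, a factor of the unfolded protein response, fell in SUN2KO by 0.25 ± 0.06, and TFAP2C, an AP-2 factor, in Kashlid by 0.21 ± 0.09.

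Other genes of the list rose. The tight junction gene CLDN7 rose to 31.8 ± 3.62, 36.4 ± 2.1 and 28.5 ± 1.91 CPM in SUN2KO, Kashlid and LBD, against 9.97 ± 1.57 in WT. CA12, a carbonic anhydrase induced by estrogen in luminal cells, rose to 20.0 ± 3.42 CPM in Kashlid and 21.6 ± 3.33 in LBD, against 5.08 ± 0.207 in WT (1.98 ± 0.17 and 2.08 ± 0.17, adjusted p = 6.67e-09 and 3.43e-09).

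It also rose in SUN2KO, to 7.84 ± 1.37 CPM (0.63 ± 0.18, adjusted p = 0.0109), and was higher in Kashlid and LBD than there by 1.35 ± 0.15 and 1.46 ± 0.15 (adjusted p = 1.99e-06 and 7.39e-07). For TFF1, AGR2 and MLPH the same 2 pairs passed in the same direction. PRLR, the prolactin receptor, fell in SUN2KO to 1.78 ± 0.83 CPM, against 5.43 ± 0.0312 in WT (-1.61 ± 0.27, adjusted p = 7.42e-05), and was at 0.14 ± 0.23 in Kashlid over WT and -0.03 ± 0.23 in LBD over WT, neither past the threshold (adjusted p = 0.66 and 0.935). Over SUN2KO, PRLR was higher by 1.74 ± 0.26 in Kashlid and 1.58 ± 0.27 in LBD (adjusted p = 6.95e-05 and 0.000295). The luminal epithelial list as a whole went mostly the other way over SUN2KO. Of its 22 tested genes, 2 were higher and 7 lower in Kashlid (median -0.08). In LBD 2 were higher and 8 lower (median -0.13). The shares that passed were 40.9% in Kashlid and 45.5% in LBD over SUN2KO, against 18.0% and 13.5% of all tested genes. TSPAN1, an epithelial tetraspanin, rose in all 3 lines by 1.35 ± 0.13, 1.38 ± 0.13 and 1.61 ± 0.13. EPCAM, the epithelial adhesion molecule, rose by 1.34 ± 0.20, 0.60 ± 0.22 and 0.68 ± 0.22 in SUN2KO, Kashlid and LBD, and ANXA9, an annexin, by 1.16 ± 0.24, 1.30 ± 0.24 and 1.04 ± 0.25. CDH1 (E-cadherin) rose in Kashlid by 1.31 ± 0.47 (adjusted p = 0.0263, 1.45 ± 0.315 CPM against 0.581 ± 0.0186 in WT).

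**Figure D4:**
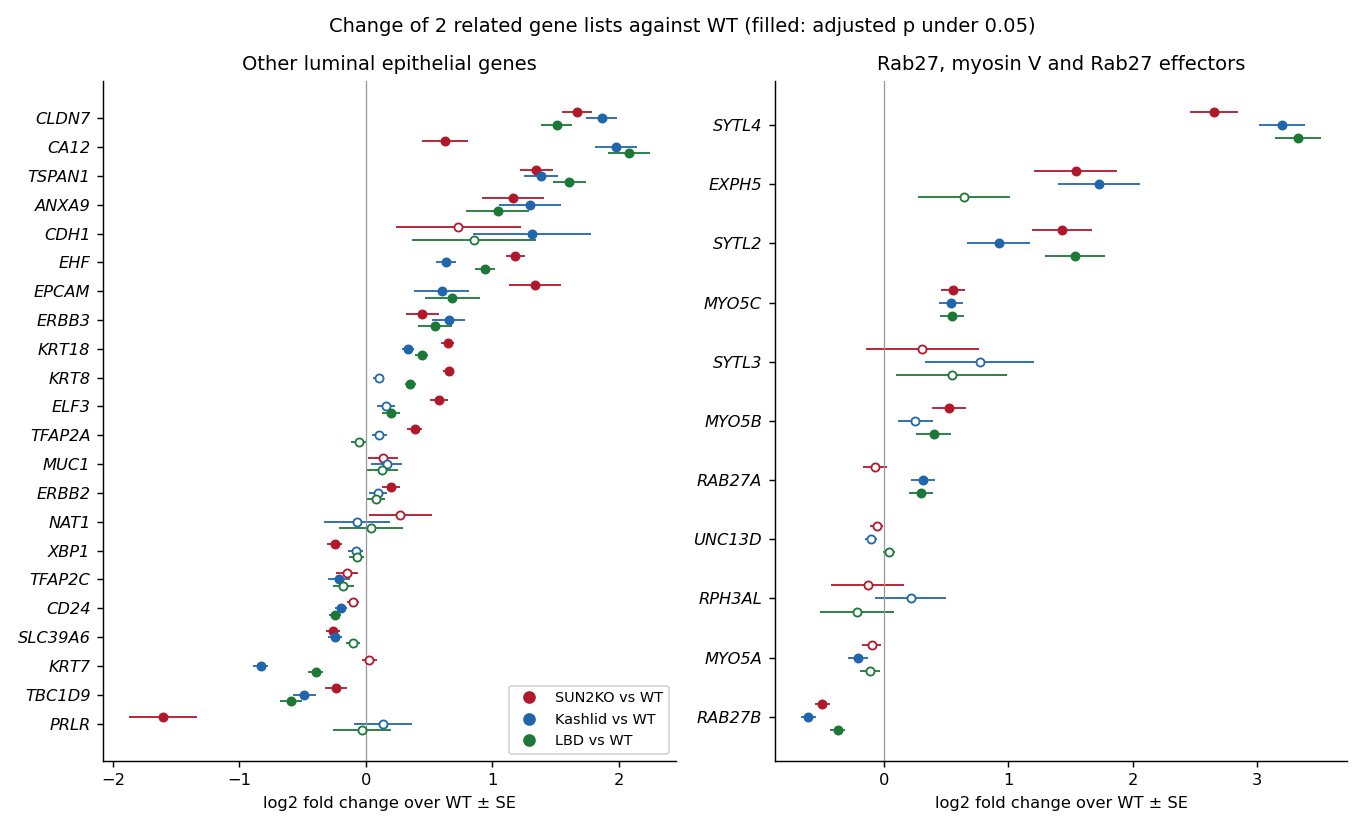
Log2 fold change over WT ± SE of the tested genes of the luminal epithelial list (left) and of the list of Rab27, myosin V and Rab27 effectors (right) in SUN2KO, Kashlid and LBD, filled where the adjusted p was under 0.05. CLDN7, TSPAN1 and ANXA9 rise in all 3 lines, CA12 rises most in Kashlid and LBD, PRLR falls in SUN2KO, and SYTL4 rises most on the right.

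In a list of melanophilin's partners, their relatives and other Rab27 effectors, more genes rose than fell. Summed and unscaled counts of the partner gene RAB27A were 720, 873, 852 and 704 in SUN2KO, Kashlid, LBD and WT. For MYO5A, the gene of myosin Va, they were 1776, 1525, 1614 and 1769. The SUN2KO libraries were the deepest, with 18814795 and 18662262 counts in all against 17115114 and 17779388 in WT. Near-equal sums in these groups are therefore not equal levels. Of 15 listed genes for Rab27 GTPases, myosin V motors and Rab27 effectors, 11 were tested, and 5 rose and 1 fell in SUN2KO over WT, 5 rose and 2 fell in Kashlid, and 5 rose and 1 fell in LBD, with medians of 0.31, 0.31 and 0.40. Of these 11, 54.5%, 63.6% and 54.5% passed, where 36.7%, 44.5% and 40.0% of all tested genes did. SYTL4 (granuphilin), a Rab27 effector of secretory granules, rose to 10.8 ± 2.16, 15.8 ± 0.409 and 17.3 ± 0.323 CPM in SUN2KO, Kashlid and LBD, against 1.71 ± 0.0683 in WT. The effectors SYTL2 and EXPH5 rose in SUN2KO by 1.43 ± 0.24 and 1.54 ± 0.33 (adjusted p = 9.56e-05 and 0.00104) and in Kashlid by 0.92 ± 0.26 and 1.73 ± 0.33 (adjusted p = 0.0058 and 0.000235), and SYTL2 also rose in LBD (1.54 ± 0.24). The motor gene MYO5C rose by 0.55 ± 0.10, 0.53 ± 0.10 and 0.55 ± 0.10 in SUN2KO, Kashlid and LBD, and MYO5B by 0.52 ± 0.13 in SUN2KO and 0.40 ± 0.14 in LBD (adjusted p = 0.00458 and 0.0259). The GTPase gene RAB27B fell to 67.5 ± 2.36, 62.5 ± 1.13 and 73.6 ± 0.73 CPM in SUN2KO, Kashlid and LBD, against 95.5 ± 1.05 in WT.

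Estrogen-response genes beyond the markers went both ways. Of 38 listed, 31 were tested, and 9 rose and 13 fell in SUN2KO over WT, 10 rose and 10 fell in Kashlid, and 10 rose and 9 fell in LBD, with medians of -0.17, 0.05 and -0.08. The shares that passed were 71.0%, 64.5% and 61.3%, against 36.7%, 44.5% and 40.0% of all tested genes. The epithelial sodium channel subunit SCNN1A rose to 61.0 ± 1.33, 65.1 ± 2.27 and 58.0 ± 3.18 CPM in SUN2KO, Kashlid and LBD, against 21.7 ± 0.0845 in WT. OLFM1, a secreted olfactomedin, fell by 2.42 ± 0.18, 3.24 ± 0.20 and 2.31 ± 0.18 on the log2 scale, and IGFBP4, which binds insulin-like growth factors, fell by 1.40 ± 0.08, 1.28 ± 0.08 and 0.96 ± 0.08. GREB1, an estrogen receptor cofactor and target, rose in SUN2KO and LBD (0.86 ± 0.23 and 0.81 ± 0.24, adjusted p = 0.00615 and 0.00969). The small heat shock protein gene HSPB8 fell by 0.25 ± 0.08, 1.31 ± 0.09 and 0.89 ± 0.09 in SUN2KO, Kashlid and LBD, and TPD52L1 rose by 0.80 ± 0.12, 1.19 ± 0.12 and 1.28 ± 0.12.

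In the list of receptor relatives and cofactors (18 of 20 tested), 5 rose and 3 fell in SUN2KO, 5 rose and 2 fell in Kashlid, and 2 rose and 2 fell in LBD, with medians of 0.01, 0.06 and 0.05. Thus 44.4%, 38.9% and 22.2% of the 18 passed, against 36.7%, 44.5% and 40.0% of all tested genes. GPER1, a membrane receptor that responds to estrogen, fell to 16.02 ± 1.53, 10.3 ± 1.83 and 11.4 ± 1.6 CPM in SUN2KO, Kashlid and LBD, against 22.8 ± 2.76 in WT. The corepressor gene TLE1 rose in Kashlid and LBD by 0.86 ± 0.14 and 0.85 ± 0.14. The histone methyltransferase gene KMT2D rose by 0.33 ± 0.04, 0.48 ± 0.04 and 0.44 ± 0.04 in SUN2KO, Kashlid and LBD. NCOA1, a coactivator, rose in SUN2KO and Kashlid by 0.36 ± 0.11 and 0.37 ± 0.11, and TRPS1, a GATA-type repressor, fell by 0.33 ± 0.08 in SUN2KO and 0.22 ± 0.08 in LBD.

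Among paralogs of the markers (8 of 17 tested), 3 rose and 1 fell in SUN2KO over WT, 1 rose and 2 fell in Kashlid, and 2 rose and 2 fell in LBD, with medians of 0.05, 0.06 and -0.001. Of these 8, 50%, 37.5% and 50% passed, where 36.7%, 44.5% and 40.0% of all tested genes did. The epithelial ETS factor EHF rose to 105 ± 8.68, 71.5 ± 6.44 and 88.8 ± 4.2 CPM in SUN2KO, Kashlid and LBD, against 46.2 ± 2.18 in WT, and its relative ELF3 rose in SUN2KO and LBD (0.58 ± 0.07 and 0.20 ± 0.07). ETS1 rose in SUN2KO (0.52 ± 0.06) and ETS2 fell in SUN2KO and LBD (-0.42 ± 0.11 and -0.40 ± 0.11). GATA2 fell in Kashlid and LBD (-0.35 ± 0.06 and -0.25 ± 0.06), with 92.3 ± 3.09 and 99.0 ± 9.84 CPM against 118 ± 0.197 in WT. TXNDC12, an endoplasmic reticulum relative of AGR2, fell in Kashlid by 0.18 ± 0.07 (adjusted p = 0.0446).

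Markers of other cell types were read in the same libraries. Of 23 basal and mesenchymal genes 18 were tested, and 3 rose and 6 fell in SUN2KO over WT, 3 rose and 6 fell in Kashlid, and 5 rose and 6 fell in LBD, with medians of -0.11, -0.15 and -0.19. The shares that passed were 50%, 50% and 61.1%, against 36.7%, 44.5% and 40.0% of all tested genes. The stress keratin KRT16 rose by 1.31 ± 0.26, 1.96 ± 0.25 and 2.22 ± 0.24 in SUN2KO, Kashlid and LBD, and KRT15, a basal keratin, by 1.22 ± 0.27, 1.35 ± 0.27 and 1.82 ± 0.26, while the basal keratin gene KRT5 had 0 counts throughout. KRT17, another basal keratin, rose to 106 ± 3.02, 129 ± 9.35 and 166 ± 18.3 CPM in SUN2KO, Kashlid and LBD, against 75.6 ± 0.124 in WT. The EMT factor TWIST1 fell in SUN2KO and Kashlid (-0.67 ± 0.21 and -0.79 ± 0.22), as did SNAI1 in SUN2KO (-0.66 ± 0.18) and SNAI2 in LBD (-0.77 ± 0.17). The caveolin gene CAV1 fell by 0.56 ± 0.07, 0.88 ± 0.07 and 0.68 ± 0.07 in SUN2KO, Kashlid and LBD. Not all mesenchymal genes were lower, as CD44 had 14066 summed and unscaled counts in LBD against 11456 in WT. The summed level of this list was 1844 to 1893 CPM in SUN2KO, 1807 to 1875 in Kashlid, 2086 to 2134 in LBD and 2012 to 2046 in WT, with 2 of 23 genes at 0 in all libraries. Its part in the marker results was not tested.

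The labels also mention HEK293T, a human embryonic kidney line, and 10 genes typical of it were checked. Of these, 3 were at 0 in all libraries and 3 were tested, of which 1 was higher (LIN28B) and 1 lower (TUBB2B) in each modified line over WT. Over all tested genes 36.7%, 44.5% and 40.0% passed in SUN2KO, Kashlid and LBD over WT. LIN28B had 28, 17 and 23 counts in SUN2KO, Kashlid and LBD and 0 in WT, and TUBB2B fell by 0.76 ± 0.17, 0.95 ± 0.17 and 0.82 ± 0.17. The summed level was 20.4 to 21.6 CPM in SUN2KO, 21.6 to 21.6 in Kashlid, 21.9 to 22.7 in LBD and 25.2 to 27.1 in WT. Their part in the marker results was not tested.

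The genes whose levels followed each marker most closely over the 8 libraries were found by Pearson's r of log2 CPM, as a description over libraries that share 4 groups and their depth. AGR2 was followed by HIP1R, RNF44 and MFI2 (r = 0.996, 0.996 and 0.991), and 353 of 10431 genes searched reached an r of 0.9. MLPH was followed by CPE, IMPAD1 and ARHGEF40 (0.982, 0.982 and 0.981), TFF1 by PRR12, HELZ2 and EMR2 (0.979, 0.977 and 0.976), and FOXA1 by YES1, BAG5 and PPP4R1 (0.976, 0.974 and 0.974). CPE, the prohormone-processing carboxypeptidase E, had 9.79 and 8.87 CPM in SUN2KO, 13.2 and 13.2 in Kashlid, 11.2 and 13.5 in LBD, and 18.4 and 17.8 in WT, the same order of groups as MLPH. For ESR1 (NKIRAS2, PXN and RABIF, 0.96, 0.942 and 0.928) and GATA3 (ZDHHC3, ORAI1 and CDAN1, 0.936, 0.933 and 0.932) the likeness rests on a few counts per library.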

How the data were processed

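RNA was taken from 10000000 MDA-MB-231 cells per sample and sequenced as paired reads after NEBNext Ultra library preparation, per the labels' protocols. Per the submitters' processing notes, the authors used Trim Galore, STAR 2.7.1a, bedtools 2.24.0, HTSeq and DESeq2 with hg19, and deposited raw counts per gene. No annotation or strand setting is given in the sources used here. Reads of overlapping genes or near-identical copies may therefore be split between them. The authors' 3 deposited tables have unnamed columns. The log2 fold changes deposited by the authors were identified by their correlation of 0.999 with the recomputed values. Their columns of p-values, also the authors' own, were found because Benjamini-Hochberg adjustment of 1 column gave the next. Their 12 columns of values per library carry no names and were not used.

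The fit used edgeR 4.0.16 under R 4.3.3, with TMM scaling and filterByExpr. All 8 libraries and a term for each of the 4 groups entered a quasi-likelihood test, two-sided and adjusted by Benjamini-Hochberg over 14016 genes at a threshold of 0.05. CPM are TMM-scaled. Alternatives were DESeq2 1.42.0, scaling by median ratios or by library size, no filter or 5 CPM in 2 libraries, fits with a replicate block or on the 2 compared groups, a 2-fold limit, and dropping every library in turn. The steps were also run on simulated counts with a spread fitted to these data. A small set of genes was changed there, in SUN2KO only, with as many raised as lowered. That set was far smaller than the number of genes called here, so the run could not check scaling or error rates for these data. Intervals of count ratios are exact and cover counting error only. The markers, lists and tests were chosen with earlier results of these data known. Named were all 7 markers, up to 4 passing genes per list at 1 CPM or more in order of size in each comparison with WT, and the 3 most similar genes at 5 CPM or more per marker. CA12 and PRLR over SUN2KO, KRT8, VIM, CD44, PGR, TFF2, TFF3, AGR3, KRT5, KRT7, TBC1D9, SLC39A6, CD24, XBP1, TFAP2C, MX2, ACKR3, IQCA1 and LIN28B were added after their values were seen. So were KRT18, KRT19, MX1, RAB17, ASB1, RAB27A and MYO5A. Start positions of the deposited tables count from 0 and were raised by 1.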

Additional observations from a re-analysis of the deposited data

Results flagged for a closer look

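The response of 3 markers against WT differed between the lines when the difference itself was tested in edgeR. Kashlid exceeded SUN2KO by a log2 fold change of 1.19 for TFF1, 1.59 for AGR2 and 1.38 for MLPH. LBD exceeded SUN2KO by 1.75 for TFF1, 1.48 for AGR2 and 1.17 for MLPH. Both comparisons share the SUN2KO libraries. No group had enough libraries for a test of single outlying values.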

How the results depend on the processing

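Of 36 fitted marker values (6 markers in 6 comparisons), all kept their direction and their side of the threshold with median-ratio factors, without a filter, with the 2 groups alone and with the replicate block, as did the 30 values that DESeq2 gave an adjusted p (none in LBD over Kashlid) and the 12 left under the filter of 5 CPM, which removed TFF1 and AGR2 among others. With library size only, 35 of 36 did, and FOXA1 in LBD over SUN2KO turned to 0.00395. The 12 values under the filter of 5 CPM were those of FOXA1 and MLPH. MLPH reached 5 CPM only in WT (6.18 and 8.63 CPM), so it passed this filter through the group where it is high. Its values under that filter are thus no separate support. The stricter filter left 2 markers called in Kashlid and 2 in LBD over WT, and 1 each (MLPH) against SUN2KO. With the 2-fold limit 1 marker was called in SUN2KO over WT and 2 in Kashlid over WT.

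Over the whole table the 2-fold limit called 630, 918 and 813 genes in SUN2KO, Kashlid and LBD over WT, 320 and 290 in Kashlid and LBD over SUN2KO, and 16 in LBD over Kashlid. LBD over Kashlid had 775 genes called without a filter and 131 with the 2 groups alone, against 408. With library size only, 61.2% of the genes called in Kashlid over SUN2KO and 61.1% in LBD over SUN2KO were higher, against 49.4% and 49.6% with TMM.

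Leaving out 1 library at a time gave 3 to 4 called markers in Kashlid over WT, 1 to 3 in Kashlid and in LBD over SUN2KO, and 1202 to 2385, 881 to 1352 and 128 to 863 called genes in Kashlid over SUN2KO, LBD over SUN2KO and LBD over Kashlid. Of 144 such marker values, 10 lost their call and 13 of uncalled results changed sign. Their ranges were -0.45 to 0.00902 for TFF1 in SUN2KO over WT, -0.14 to 0.11 for FOXA1 in LBD over SUN2KO, -0.30 to 0.54 for GATA3 in LBD over SUN2KO and -0.16 to 0.33 for ESR1 in SUN2KO over WT. They were -0.37 to 0.12 for ESR1 in LBD over SUN2KO, -0.89 to 0.27 for GATA3 in Kashlid over WT, -0.0167 to 0.28 for FOXA1 in LBD over Kashlid and -0.30 to 0.11 for AGR2 in LBD over Kashlid. They were -0.48 to 0.0164 for MLPH in LBD over Kashlid and -0.13 to 0.0493 for ESR1 in LBD over WT. As a check of pairing, the differences between replicates 1 and 2 correlated between groups at -0.02 to 0.22 over 10866 genes, with 4 of 6 pairs of groups over 0.1. The pairs among the modified lines were at 0.20 (SUN2KO and Kashlid), 0.21 (SUN2KO and LBD) and 0.22 (Kashlid and LBD). Those with WT were at 0.05 for SUN2KO, -0.02 for Kashlid and 0.11 for LBD. As not all pairs were over 0.1, and the labels tie nothing else to a number, the numbers were not taken as pairs. With the replicate block the count of called markers stayed at 2, 4 and 4 over WT, 3 and 3 over SUN2KO and 0 in LBD over Kashlid, and 2787 genes were called in Kashlid over SUN2KO. The cause of these changes was not tested. ESR1, GATA3 and SPDEF had 17 counts or fewer in every library, and at this depth the counting intervals of their ratios to WT all include 1. With windows of 1 or 5 Mb in place of 2.5 Mb, 27 of 42 medians of neighbouring genes over WT moved by less than their replicate spread and 15 by more. The genes most similar to a marker changed with the measure: by Spearman's rho 0 or 1 of the 3 were among the top 3.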
